A study of Drosophila melanogaster with 7 samples.

Results

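The 6 genes described here encode the ecdysone receptor and regulators that act in the response to the hormone: *EcR*, *usp*, *br*, *Hr4*, *ftz-f1* and *Hr39*. They were chosen by name, with earlier results of these data known, and all 6 were found once among the 17684 genes that the RefSeq table places on the main arms in Release 6 of the *Drosophila melanogaster* genome, known as dm6. Binding of CLAMP, a zinc-finger protein that recognises GA-rich DNA, was mapped by CUT&RUN: a nuclease tethered to the antibody cuts out bound chromatin, and the freed fragments are sequenced. The cells were unfixed S2, a male embryonic line, and unfixed Kc, a female embryonic line, both kept at 25 °C in serum-supplemented medium, with no hormone treatment named in the labels. The lists analysed came from 3 S2 and 2 Kc libraries with rabbit anti-CLAMP and from 1 control library with rabbit IgG for each line. A further Kc sample was left out by the submitters for want of starting material, so the groups are unequal. Each line is a single established cell line, so a difference between S2 and Kc cannot be assigned to sex apart from other differences between the lines. Peak lists carry no expression values, and the identity of the lines was not checked against marker genes.

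Ecdysone, the steroid that drives moulting and metamorphosis, acts through a heterodimer of EcR and Usp, 2 nuclear receptors, that binds DNA and switches a first set of regulators. Among these early regulators is *br* (Broad-Complex), a gene of zinc-finger transcription factors. *Hr4* encodes a nuclear receptor that represses early genes, *ftz-f1* one that makes tissue competent for the later prepupal pulse of the hormone, and *Hr39* a close relative of *ftz-f1*. *EcR*, *br* and *ftz-f1* each make several protein isoforms.

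Peaks on the main arms numbered from 5535 to 9832 in the CLAMP lists, 1165 in S2 IgG and 8615 in Kc IgG. Read numbers are not in the lists, so the depth of each library is unknown. S2 replicate 3 stood apart, where 32.7% of the peaks reached the stricter q-value limit of 0.0001, against 53.7% to 76.4% in the other CLAMP lists. Of its peaks 12.1% lay on X, the chromosome of *usp*, *br* and *Hr4*, against 19.8% to 24.3% in the other CLAMP lists. The main counts, shares and differences that rest on this library are also given without it. A gene was said to hold a peak when a peak overlapped it or its flanks of 500 bp, and the covered share is the percentage of that window under peaks. Peaks of the 5 CLAMP libraries that shared at least 1 bp were merged into regions. Fold enrichments and q-values were assigned to each peak by the authors, and they describe and rank peaks within a list. The gene table gives no strand, exons or transcript starts, so the lower-numbered and higher-numbered ends of a gene are named without saying which is the start, and exonic and intronic positions were not told apart.

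All 6 genes held a CLAMP peak in each of the 5 CLAMP libraries, against 6.28% of all genes. Long genes hold peaks more often: 34.8% of the 1012 protein-coding genes of 20 kb or more, the class of 5 of the 6 genes, held a peak in all 5 libraries, and 4.36% of the 4447 protein-coding genes of 2 to 6 kb, the class of *usp*. Without S2 replicate 3, a peak in the 4 other CLAMP libraries was found at 13.6% of all genes, 50.5% of the long and 13.3% of the shorter class. Under the stricter q-value limit 5 of the 6 genes did so, the exception being *usp* in S2 replicate 3, against 3.06% of all genes, 21% of the long and 1.55% of the shorter class. The windows of the 6 genes, 319613 bp in all, contained 42, 45 and 23 peaks for S2 replicates 1 to 3 and 53 and 41 for the Kc replicates. They were covered to 8.57%, 7.84% and 2.55% in S2, against 7.25% and 6.95% in Kc. Over all long protein-coding genes pooled, the covered share was 3.29%, 3.02%, 1.40%, 2.55% and 2.77% in the same order.

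**Figure D1:**
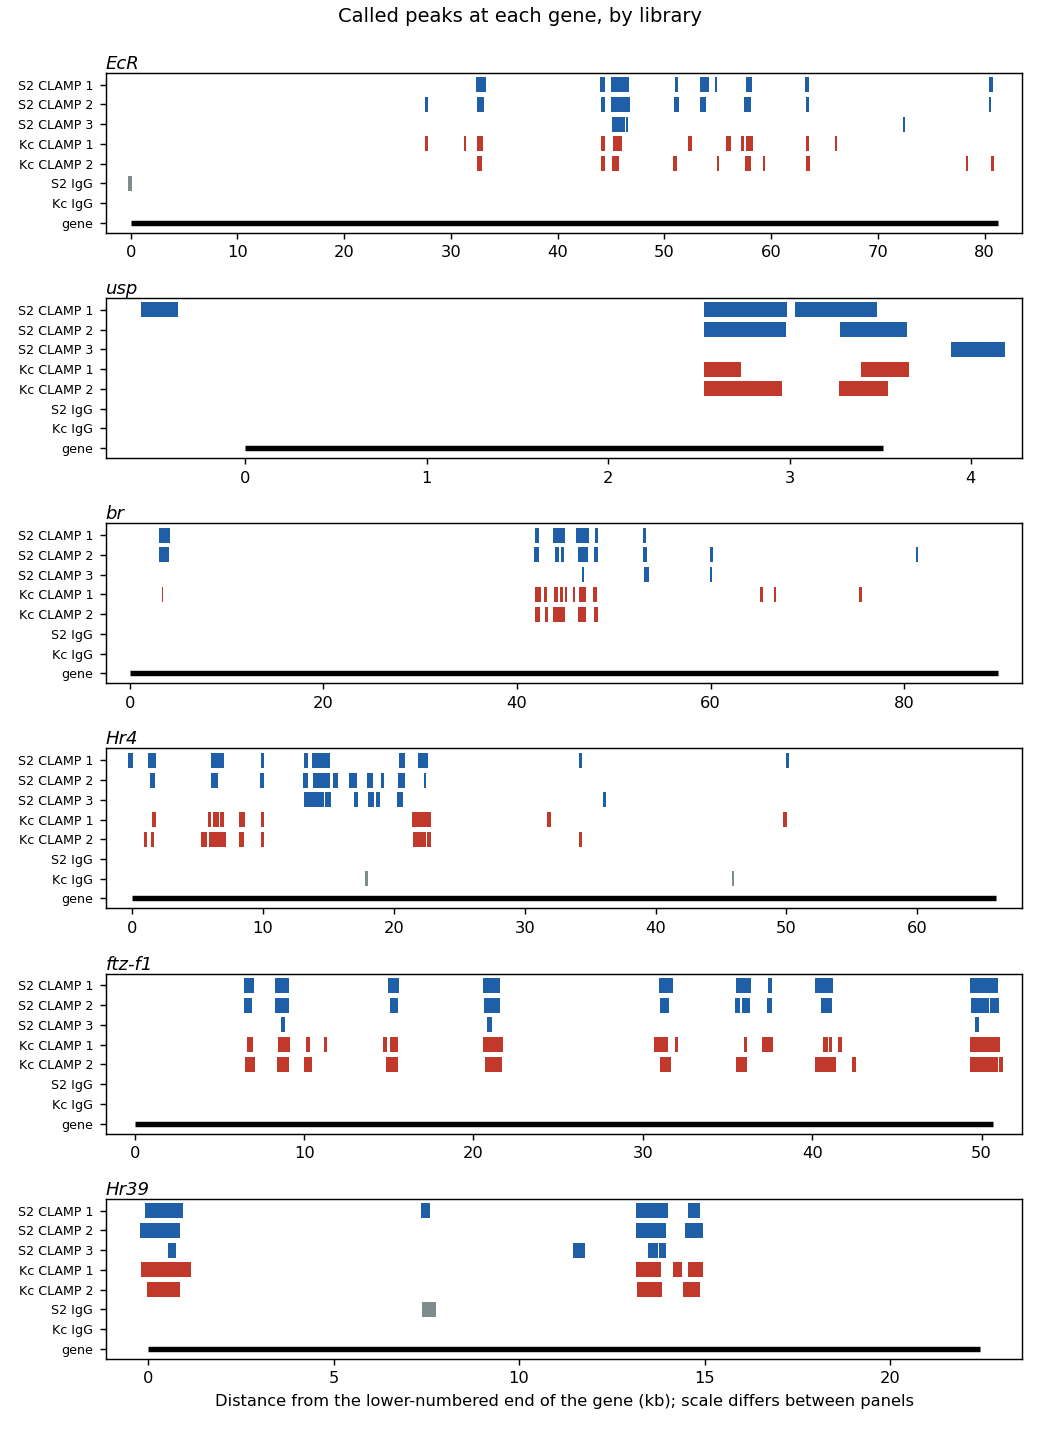
Called peaks (boxes) in the 3 S2 CLAMP (blue), 2 Kc CLAMP (red) and 2 IgG (grey) libraries along each gene (black bar), with distance from the gene's lower-numbered end in kb and a scale of its own in each panel. S2 replicates 1 and 2 and both Kc libraries share 26 of the 75 merged regions, a share not counted over all main-arm regions. S2 replicate 3 has fewer peaks, and a stretch of *Hr4* between 13 and 21 kb has CLAMP peaks in S2 alone.

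*EcR*, the gene of the hormone-binding receptor subunit, spans 2R 6087873 to 6169087 (81215 bp). Its window held 9, 9 and 4 peaks for S2 replicates 1 to 3 and 11 and 10 for the Kc replicates, and its covered share was 7.27%, 6.45% and 1.89% in S2, against 5.34% and 4.64% in Kc. The Kc values lay inside the range of the S2 values. The peaks merged into 17 regions, which ran from 6115413 to 6168763, so the lower part of the gene was free of CLAMP peaks. The region held by all 5 libraries lay near the middle of the gene, at 6132869 to 6134661, with highest folds of 5.86, 5.90 and 2.76 in S2, against 2.38 and 3.24 in Kc. By fold it stood at the percentiles 90 and 88.6 of the lists of S2 replicates 1 and 2 and at 72.5 and 78.9 of the Kc lists. S2 replicate 3 had 3 separate peaks in it. The one that overlapped the Kc peaks, at 6132980 to 6133891, had a fold of 2.25 at the 64th percentile, below both Kc values, and the one with the fold of 2.76 (88.3rd percentile) lay beyond them, at 6134276 to 6134475. Beside it, a narrow region at 6131850 to 6132354 was the strongest of the gene in both Kc lists, with folds of 3.40 and 5.53, and reached 4.66 and 2.35 in S2 replicates 1 and 2. Its summits in these 4 libraries fell within 10 bp of each other.

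A further *EcR* region was strong in S2 replicates 1 and 2 and absent from the other 3 CLAMP lists. It lay at 6141213 to 6142096, with folds of 5.78 and 5.91 and −log10 q-values of 127 and 96.8. S2 replicate 3 had no peak there either, so the region is not one of S2 as a group. It ended 68 bp before tRNA:Arg-ACG-1-1, 1 of 13 tRNA genes annotated inside *EcR*. Of these 13 tRNA genes, 1 overlapped a CLAMP region, one of Kc replicate 2 alone. Near the higher-numbered end, a region at 6168258 to 6168763, with its edge 324 bp inside the gene, was held by S2 replicates 1 and 2 and Kc replicate 2, with folds of 3.26, 2.20 and 2.67.

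*usp*, the gene of the partner subunit, spans X 2038798 to 2042311 (3514 bp) and held 3, 2 and 1 peaks in the S2 libraries and 2 in either Kc library. Its covered share was 22.8%, 18.1% and 2.75% in S2, against 10.3% and 15.4% in Kc, and the Kc values again lay between the S2 values. Within the 4447 genes of 2 to 6 kb its mean share stood at the 95.5th percentile in S2 (the 95.8th without S2 replicate 3) and the 93.1st in Kc. Both regions that recurred lay at the higher-numbered end and were held by S2 replicates 1 and 2 and both Kc libraries. The first, at 2041326 to 2041782, had folds of 4.05 and 2.61 in S2, against 2.24 and 3.37 in Kc. The second, at 2041830 to 2042453, ran past the end of the gene and was weaker, with folds of 2.58, 1.96, 1.71 and 2.31. The single peak of S2 replicate 3, at 2042688 to 2042986 (fold 1.96), lay outside the gene, with 124 bp of it in the 500 bp flank, and overlapped neither. The call of *usp* in that library rests on this peak and was lost without flanks. *usp* lies inside the annotated span of *Actn*, the alpha-actinin gene (2023822 to 2042311), which ends at the same base, and *CG4313* begins at 2041868, so peaks at this end cannot be assigned to 1 gene by position.

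*br*, the early-response gene, spans X 1575132 to 1664869 (89738 bp), all of it inside the annotated span of *Mur2B*, so its peaks lie in both genes. It held 6, 9 and 3 peaks in S2, against 12 and 5 in Kc, its covered shares being 5.25%, 5.30% and 1.04% in S2, against 4.36% and 3.60% in Kc. Of its 14 regions, the 4 that were held by 4 or 5 libraries fell in 1 stretch of 6682 bp near the middle of the gene, at 1616866 to 1623547. Peaks covered 50.8%, 41.1% and 3.17% of that stretch in S2, against 45.0% and 48.9% in Kc, and neither IgG library had a peak in it. Within it, the region at 1621185 to 1622531 was held by all 5 libraries, with folds of 4.48, 6.27 and 2.61 in S2, against 2.54 and 4.03 in Kc, and summits within 82 bp of each other.

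The other *br* regions differed more between libraries. At 1578132 to 1579246, starting 3000 bp from the lower-numbered end, S2 replicates 1 and 2 had folds of 5.39 and 6.04, whereas Kc replicate 1 had 1.92 and S2 replicate 3 and Kc replicate 2 had no peak. A region at 1628160 to 1628739 was called in the 3 S2 libraries but in neither of Kc, with folds of 2.13, 2.36 and 2.32 at the percentiles 36.9, 50.6 and 69.9 of their lists. One at 1617962 to 1618310 was called in both libraries of Kc but none of S2, with folds of 1.61 and 1.75, at the 6.90th and the 14th percentile of their lists.

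*Hr4*, the gene of the repressor receptor, spans X 1941940 to 2007956 (66017 bp) and had 20 regions, more than any other of the 6 genes, none of them held by all 5 libraries. It held 11, 11 and 8 peaks in S2 and 9 in either Kc library, and its covered share was 8.20%, 7.70% and 5.62% in S2, against 5.87% and 6.54% in Kc. S2 replicate 3 lay below both Kc libraries and the other S2 libraries above them. A stretch of 7770 bp at 1955005 to 1962774 carried 4, 7 and 7 peaks in the S2 libraries and none in either Kc CLAMP library. Peaks covered 27.4%, 48.5% and 45.0% of it in S2 replicates 1 to 3. Of the peaks there, 4, 6 and 2 had a q-value of 0.0001 or less. The stretch was not covered alike throughout. From 1957323 to 1961174 S2 replicate 1 had no peak, and those of S2 replicates 2 and 3 had folds of 1.37 to 1.82. These stood at or below the 19.5th percentile of their lists.

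The *Hr4* stretch held 3 of the 4 regions at the 6 genes that every S2 library but neither Kc library held. They lay at 1955005 to 1955445, at 1955475 to 1957141 and at 1962194 to 1962774. As many as 3 such regions or more were found at 1.38% of the long protein-coding genes and 0.0961% of all genes. Only the gap between 1955445 and 1955475 separates the first region from the second, and joined they would leave *Hr4* short of 3. In S2 replicates 1 to 3 the folds were 2.64, 2.80 and 1.81 at the first, at the percentiles 56.4, 62.8 and 21 of their lists. At the second they were 2.35, 2.32 and 2.18, at the percentiles 47, 48.2 and 57.5, and the peak of S2 replicate 3 there was its best of the gene, with rank 699 by p-value among 5535. At the third they were 2.24, 2.41 and 1.77, at the percentiles 42.5, 52.1 and 16. The stretch contained 7 of the 8 *Hr4* peaks of S2 replicate 3. S2 IgG had no peak in it and Kc IgG had 1, at 1959769 to 1959968, with a fold of 1.57. This Kc IgG peak overlapped the region at 1959917 to 1960413 of S2 CLAMP replicates 2 and 3, whose folds were 1.52 and 1.56. The stretch was singled out after its values were seen, and the copy number of this part of X in either line is not known from peak lists.

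On both sides of this stretch, *Hr4* was called in both lines. At 1963354 to 1964769 the folds were 2.33 and 1.69 for S2 replicates 1 and 2, against 3.67 and 5.46 in Kc, where this was the strongest region of the gene in both lists. At 1951703 to 1952030 they were 3.70 and 6.68 for S2 replicates 1 and 2, against 1.93 and 3.12 in Kc, with summits within 20 bp. Neither was called in S2 replicate 3.

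*ftz-f1*, the competence factor gene, spans 3L 18750607 to 18801309 (50703 bp) and was the most covered of the 5 long genes in S2 replicates 1 and 2 and both Kc libraries. It held 9, 11 and 3 peaks in S2, against 15 and 12 in Kc, with covered shares of 14.85%, 12.76% and 1.49% in S2, against 14.98% and 15.55% in Kc. These shares were 4.51, 4.22 and 1.06 times the share of all long protein-coding genes in S2 and 5.87 and 5.62 times in Kc. Of its 14 regions 3 were held by all 5 libraries, a number reached or passed by 4.74% of the long protein-coding genes and 0.317% of all genes, and 5 more by all but S2 replicate 3. Without that library the number common to all was 8 for *ftz-f1*, and 3 or more were found at 15.6% of the long protein-coding genes and 1.28% of all genes.

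The 3 common *ftz-f1* regions lay toward the lower-numbered end (18758890 to 18759744), in the interior (18771150 to 18772365) and across the higher-numbered end (18799914 to 18801857). At the first the folds were 8.26, 12.2 and 2.76 in S2, against 4.60 and 6.44 in Kc, and the 5 summits lay within 53 bp. At the second the folds were 9.17, 7.09 and 2.18 in S2, against 4.45 and 8.82 in Kc. At the third they were 6.91, 10.2 and 2.25 in S2, against 3.96 and 6.76 in Kc. All 3 stood above the 90th percentile by fold in each list but that of S2 replicate 3, where they stood at the 88.3rd, the 57.1st and the 64th. The interior and end regions also overlap the annotated lncRNA:CR45939, which covers the higher-numbered part of the gene. A region at 18760578 to 18761092 was called in both libraries of Kc but none of S2, with folds of 1.89 and 2.32. Neither IgG library had a peak at *ftz-f1*.

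*Hr39*, the relative of *ftz-f1*, spans 2L 21237250 to 21259675 (22426 bp) and held 4, 3 and 4 peaks in S2, against 4 and 3 in Kc. Its covered share was 10.4%, 10.1% and 4.19% in S2, against 11.4% and 8.54% in Kc. Of its 6 regions 2 were held by all 5 libraries, and these carried the highest folds of the gene in each CLAMP library. The interior one, at 21250402 to 21251259, had folds of 9.45, 8.95 and 3.64 in S2, against 4.57 and 5.92 in Kc, and stood above the 94th percentile in all 5 lists. The other crossed the lower-numbered end of the gene, at 21237020 to 21238404, and overlapped the annotated *mir-9374*. Its folds were 8.30, 6.03 and 2.39 in S2, against 3.46 and 6.94 in Kc.

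**Figure D2:**
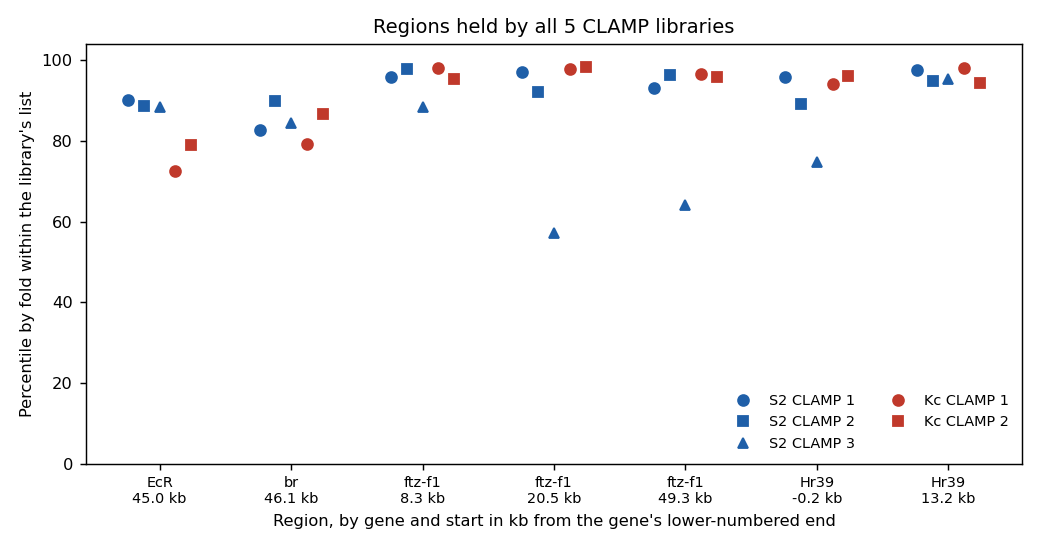
Percentile, within each library's own list, of the peak with the highest fold in each of the 7 regions held by all 5 CLAMP libraries (blue S2, red Kc), labelled by gene and by the start of the region in kb from the gene's lower-numbered end. The interior *Hr39* region stands above 94 in every list, and S2 replicate 3 (triangles) is the lowest library at 4 of the 5 regions of *ftz-f1* and *Hr39*, with 57.1 as its lowest value.

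Counted over the 6 genes there were 75 regions, of which 30 (40%, 95% Wilson interval 29.7 to 51.3) were held by 1 library, against 57.8% of the 19039 regions of the main arms. All 5 libraries held 7 of the 75 (9.33%, 4.59 to 18.0), against 6.57% of all regions. A further 19 (25.3%, 16.9 to 36.2) were held by every CLAMP library but S2 replicate 3, so without that library 26 regions were common to all. The share of all main-arm regions in these classes was not counted. S2 replicate 3 has the shortest CLAMP list, so neither number is read as a trait of the 6 genes. The intervals cover counting error alone, and regions of 1 gene and 1 set of libraries are not independent. Of the 7 common regions *ftz-f1* had 3, *Hr39* 2, and *EcR* and *br* 1 each, and *Hr4* and *usp* had none. At least 1 common region was found at 4.86% of all genes and 22.9% of the long protein-coding genes. Without S2 replicate 3, *EcR* had 5, *usp* 2, *br* 4, *Hr4* 4, *ftz-f1* 8 and *Hr39* 3, and at least 1 was found at 13% of all genes and 45.3% of the long protein-coding genes. Regions held by 1 library were narrow, with a median width of 236.5 bp against 1347 bp for those held by all 5. Merging overlapping peaks itself makes regions of more libraries wider, so this contrast follows in part from the method. Of the 30, 14 came from Kc replicate 1, the CLAMP library with the longest list (9832 peaks).

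**Figure D3:**
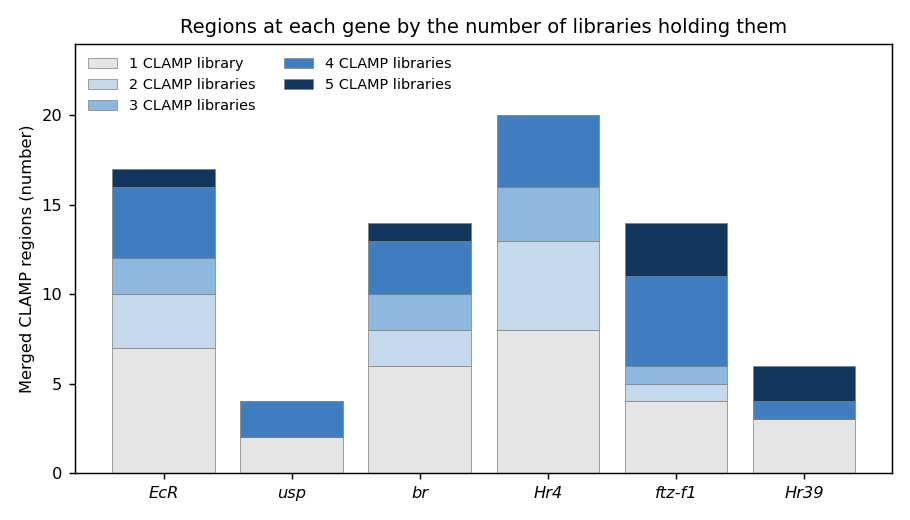
Number of merged CLAMP regions at each gene (bars), divided by how many of the 5 CLAMP libraries held them. *ftz-f1* has 8 of its 14 regions in 4 or 5 libraries, while *Hr4* has 4 of 20.

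S2 and Kc were compared gene by gene on the covered share, the question of the series being where CLAMP binding differs between the lines. No difference passed the test, and with 3 libraries against 2 none could, because the exact two-sided permutation test, with 10 ways to place 3 and 2 labels, cannot give a p below 0.1. Over the 8532 genes with a CLAMP peak, 0 were called at an adjusted or unadjusted p of 0.05, as the test requires (0% of genes). *ftz-f1* had a mean share of 9.70% ± 7.19 (SD, n = 3) for S2 against 15.3% ± 0.41 (SD, n = 2) for Kc, a difference of -5.57 points with an exact permutation p of 0.5. At *ftz-f1* either Kc value exceeded the 3 S2 values, by a narrow margin over S2 replicate 1. That order was shown by 4.14% of all genes and 13.1% of the long protein-coding genes. Without S2 replicate 3 the *ftz-f1* difference was -1.46 points.

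For the other 5 genes the lines overlapped. The share of *usp* was 14.6% ± 10.5 for S2 against 12.9% ± 3.65 for Kc (SD, n = 3 and 2), a difference of 1.70 points (exact permutation p = 0.9) that became 7.61 points without S2 replicate 3. For *Hr4* it was 7.18% ± 1.37 against 6.20% ± 0.48, 0.97 points apart (exact permutation p = 0.5, n = 3 and 2), or 1.75 without that library. *EcR* had 5.20% ± 2.90 and 4.99% ± 0.50, and *br* 3.87% ± 2.45 and 3.98% ± 0.54, and for both the exact permutation p was 1 (n = 3 and 2). Their differences were 0.21 and -0.11 points, and 1.87 and 1.30 without S2 replicate 3. *Hr39* had 8.23% ± 3.50 and 9.98% ± 2.03, a difference of -1.75 points (exact permutation p = 0.8, n = 3 and 2) that turned to 0.27 without it. After Benjamini-Hochberg adjustment over the 8532 genes, p was 1 for each of the 6. At each of the 6 genes the SD of the S2 libraries exceeded the difference between the lines. Without S2 replicate 3, both remaining S2 values exceeded both Kc values at *EcR*, *br*, *Hr4* and *usp*, with an exact permutation p of 0.333, the smallest that 2 libraries against 2 allow. That order was shown by 10.4% of all genes, by 28.6% of the long protein-coding genes and by 12.4% of those of 2 to 6 kb.

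**Figure D4:**
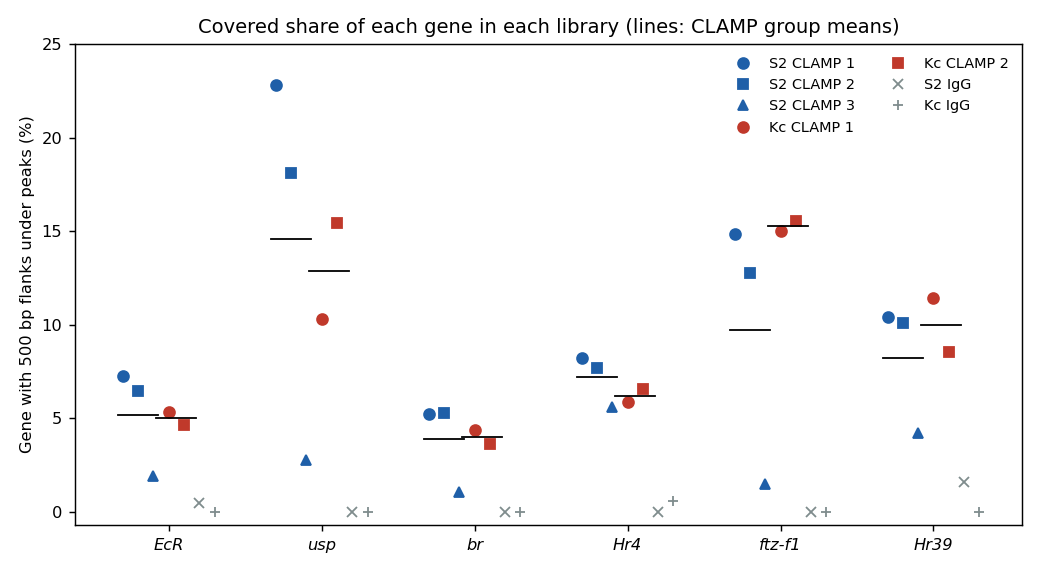
Share of each gene with its 500 bp flanks that lies under peaks (y axis, %) in each library (points), with black lines at the mean of the 3 S2 and of the 2 Kc CLAMP libraries. S2 replicate 3 (blue triangles) is the lowest CLAMP library at every gene, IgG values run from 0 to 1.59%, and both Kc values exceed all S2 values at *ftz-f1* alone.

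**Figure D5:**
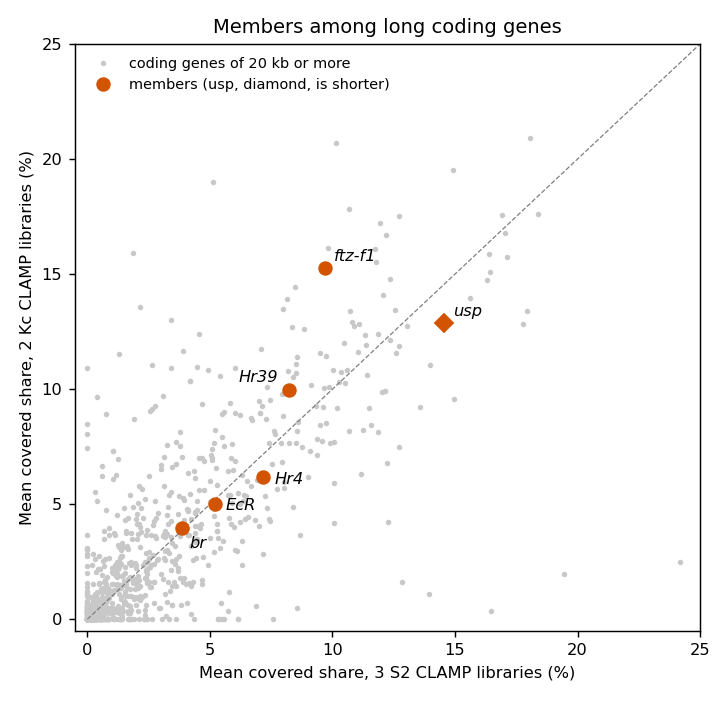
Mean covered share in the 3 S2 (x axis, %) and the 2 Kc (y axis, %) CLAMP libraries of the 1012 protein-coding genes of 20 kb or more (grey points), with the 6 genes in orange and the line of equal shares dashed. *br*, *EcR* and *Hr4* lie near the line, and *ftz-f1* lies above it at 9.70% in S2 (13.81% without S2 replicate 3) and 15.3% in Kc.

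Single regions separated the lines in few places. Of the 75 regions 4 (5.33%) belonged to the full set of S2 libraries and to none of Kc, at *Hr4* and *br*, against 1.93% of all regions. The number was 1 under the stricter q-value limit, 7 without S2 replicate 1 and 5 without S2 replicate 3. A further 3 (4%) belonged to both Kc and to none of S2, at *br*, *ftz-f1* and *Hr4*, against 4.03% of all regions. There was 1 under the stricter q-value limit or with equally long lists, and there were 9 without Kc replicate 1 and 19 without Kc replicate 2. Leaving a library out means that fewer lists have to hold a region, and with 1 Kc library left a region of that library alone counts. The shares of all regions given here are those of the 5 libraries. A region of S2 alone was found at 1.29% of all genes and 8.89% of the long protein-coding genes, and one of Kc alone at 2.86% and 15.7%. Of the 3 Kc regions, that of *Hr4* (1950113 to 1950590) had folds of 1.61 and 1.82. The 3 stood at or below the 53.8th percentile by fold in both Kc lists.

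S2 IgG had a peak at 2 of the 6 genes, *EcR* and *Hr39*, and Kc IgG at 1, *Hr4*. S2 IgG had a peak at 3.47% of all genes and 26.6% of the long protein-coding genes, and Kc IgG at 20.2% and 66%. The share covered in S2 IgG was 1.27 times that of all long protein-coding genes at *EcR* and 4.41 times at *Hr39*, and that in Kc IgG was 0.291 times at *Hr4*. *usp*, *br* and *ftz-f1* had none. Of the 75 CLAMP regions 2 (2.67%, 95% Wilson interval 0.734 to 9.21) overlapped an IgG peak, against 14.5% of all regions, and none of the 7 common regions did, against 55.5% of the 1250 common regions of the main arms. With 1 IgG library per line these differences were not tested. The interval covers counting error alone and treats regions as independent, which those of 1 gene are not. The *EcR* peak of S2 IgG, at 6087662 to 6088036 on the lower-numbered end, had a fold of 25.6 and rank 376 by p-value among 1165. The nearest CLAMP region lay 8086 bp away. The *Hr39* peak of S2 IgG, at 21244636 to 21245007 (fold 4.72), overlapped a peak of S2 CLAMP replicate 1. The Kc IgG peak in the *Hr4* stretch overlapped peaks of S2 CLAMP replicates 2 and 3.

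The remaining 16 of the 21 listed nuclear receptors are given beside the 5 described here. Of these 16, 3 held a peak in all 5 CLAMP libraries, none was called in every library of 1 line and no library of the other, and 6 had no CLAMP peak. Among all 17684 genes, 1111 (6.28%) held a peak in all 5 and 9152 had no CLAMP peak. The 3 were *Eip75B*, an ecdysone-induced heme-binding receptor, *Eip78C*, another ecdysone-induced receptor, and *Hnf4*, a regulator of lipid metabolism, all longer than 20 kb. *Eip75B* was covered to 11.2%, 9.69% and 0.36% in S2, against 11.7% and 11.8% in Kc. *Eip78C* was covered to 7.82%, 5.32% and 0.52% in S2, against 11.9% and 12.9% in Kc, but also to 7.13% in Kc IgG. *Hnf4* was covered to 23.9%, 17.6% and 3.46% in S2, against 5.91% and 13.3% in Kc, with no IgG peak. The median share of the 16 was 0.33% in S2 replicate 1 and 0.63% in Kc replicate 2 and 0 in the other CLAMP libraries, against 9.31%, 8.90%, 2.32%, 8.07% and 7.54% for the 6 genes and 0 for all genes. The 16 are shorter, with 7 of them at 20 kb or more, and the difference was not tested.

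Of 29 further genes listed for the hormone pathway, 28 were matched, 6 of these held a peak in all 5 CLAMP libraries, and 7 had none. For all 17684 genes these numbers were 1111 (6.28%) and 9152. Among 7 matched genes of steroid synthesis, *nvd*, which acts at the first step from cholesterol, held peaks in all 5 libraries (5.80%, 5.34% and 3.60% covered in S2, 2.56% and 2.16% in Kc), and Kc IgG had 4 peaks there. *spo*, a cytochrome P450 gene of the same route, was the 1 gene called in both Kc and no S2 CLAMP library (1.54% of all genes), with folds of 2.46 and 2.51, and Kc IgG had a peak there too. Of 5 cofactor genes *tai*, a coactivator of the receptor, was called in all 5 libraries and reached folds of 9.18, 12.2 and 3.24 in S2, against 4.46 and 14.2 in Kc. Of 11 response genes, *Eip74EF*, *Eip63E*, *ImpL2* and *hid* were called in all 5. *Eip74EF*, the gene of an early ETS-domain regulator, held 9 regions common to all 5 libraries and was covered to 15.51%, 12.77% and 5.0% in S2, against 14.2% and 11.5% in Kc. None of the 3 juvenile hormone genes and neither the importer *Oatp74D* nor the breakdown enzyme gene *Cyp18a1* was called in all 5.

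Genes with the most similar covered shares over the 7 libraries were found by the mean absolute difference among protein-coding genes of 5 kb or more. The nearest to *EcR* was *hng3*, at 0.314 points, and then *Ppcs*, at 0.398. *br* was nearest to *csw* (0.269) and *Pli* (0.341), *usp* to *drk* (0.634) and *jumu* (0.831), and *ftz-f1* to *wts* (0.806) and *Pdk* (0.861). *usp* itself, at 3514 bp, is shorter than the genes searched, so genes of its own length class were not all compared. *Hr39* was nearest to *CG7367* (0.808) and *Ip6k* (0.876), and *Hr4* to *spen* (0.337 points) and the ecdysone-induced kinase gene *Eip63E* (0.789).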

How the data were processed

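Per the labels' protocols, CUT&RUN libraries were made from equal numbers of cells, with 1 ng of DNA and 14 PCR cycles, and sequenced as 25 bp read pairs. Per the submitters' processing notes, FastQC, Trimmomatic, Bowtie2 and MACS2 were used with the build dm6. For versions, the control in peak calling and duplicate handling, details are not given in the sources used here. Each library has its own narrowPeak list, so the authors called peaks per sample. The deposited fold is the ratio of signal at the summit to the caller's background, the deposited −log10 p and −log10 q belong to the summit, and the deposited score, the whole-number part of 10 times −log10 p, was not used. The S2 replicate 3 library carries different internal numbers in its title and its list, and was taken by its title. Nothing states that replicates came from separate cultures, so p-values reflect how these libraries vary, perhaps for technical reasons.

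Rows with 1 interval were joined, keeping the strongest summit. Genes came from the RefSeq table of Release 6 plus ISO1 MT. Differences of mean covered share were tested with the exact permutation test (Python 3.11.15, NumPy 2.4.6), and the procedure was tested on simulated peak lists. The threshold was 0.05. Depth is unknown, and Wilson intervals cover counting error alone. Members and lists were chosen with earlier results of these data known. Named genes were the 6 members, listed genes called in all 5 CLAMP libraries or in every library of 1 line alone, and the 2 genes nearest to each member. The 2 to 6 kb class, the *br* and *Hr4* stretches and the *EcR* region beside a tRNA gene were chosen after values were seen. No sequence was used here, so the planned motif counts were not made. *phm* had no single match, and Eip71CD is listed as *MsrA*. Alternatives covered the q-value, flanks, list length, summits, IgG, region building, single replicates and a replicate block.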

Additional observations from a re-analysis of the deposited data

How the results depend on the processing

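No setting brought a covered-share difference past the threshold, since no p below 0.1 was possible. Signs of small differences changed. For *br* (-0.11 points) the difference was 0.88 under the q-value limit of 0.0001 and 1.04 with equally long lists of 5535 peaks. Leaving out 1 library gave -0.82 to 1.87 for *EcR*, -2.43 to 7.61 for *usp*, -0.83 to 1.30 for *br*, -8.14 to -1.46 for *ftz-f1*, -3.18 to 0.27 for *Hr39* and 0.46 to 1.75 for *Hr4*. The signs of *ftz-f1* and *Hr4* held under every alternative run. With equally long lists *Hr4* differed by 1.91 points, with the smallest p this design allows (exact permutation p = 0.1). The difference in the number of the 6 genes called per library, S2 minus Kc, was 0.00, and became -0.33 with the q-value limit, with no flank and with summits, each time through *usp* in S2 replicate 3. With the q-value limit the regions of all 5 libraries fell from 7 to 4, those of S2 alone from 4 to 1 and those of Kc alone from 3 to 1, and with equally long lists Kc alone had 1. Leaving out 1 library gave 7 to 26 common regions, 4 to 7 of S2 alone (7 without S2 replicate 1) and 3 to 19 of Kc alone (9 without Kc replicate 1 and 19 without Kc replicate 2), where fewer lists have to hold a region. Paired by replicate number 1 and 2, a replicate block gave 0.00 for genes called, 1.87 for *EcR*, 7.61 for *usp*, 1.30 for *br*, -1.46 for *ftz-f1*, 0.27 for *Hr39* and 1.75 for *Hr4*, with an exact sign-flip p of 0.5 at the least. It leaves S2 replicate 3 out. Nothing in the labels ties equal numbers together. Over 8532 genes the deviations of S2 and Kc replicate 1 from their group means correlated at -0.276 and those of replicate 2 at -0.11. With 2 Kc libraries the Kc deviations mirror each other, so these correlations cannot show whether equal numbers belong together. The unknown depth limits every absence of a peak.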

Other observations

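*br*, *Hr4* and *usp* lie within 467180 bp of one another on X (1575132 to 2042311), an interval with 55 annotated genes. Peaks covered 5.31%, 4.59% and 1.29% of this interval in S2 replicates 1 to 3 and 2.67% and 2.61% in Kc replicates 1 and 2. In 50 windows of the same length along X, the median was 4.07%, 3.22% and 0.64% in S2 and 3.59% and 3.48% in Kc. The interval therefore lay above the median window in the 3 S2 lists, though in S2 replicate 3 only through the *Hr4* stretch. In both Kc lists the interval lay below it. It was reached or passed by 10, 12 and 16 windows in S2 and by 40 and 42 in Kc. In Kc IgG it was covered to 0.24%, below all 50 windows. The *Hr4* stretch described above lies inside the interval and held 7 of the 17 peaks of S2 replicate 3 there. Most of the bases under those peaks lay in that stretch. Without them the S2 replicate 3 value would fall below its median window of 0.64%. The interval was chosen after values were seen, and the difference between the lines was not tested. Of its 74 regions 5 (6.76%) were of S2 alone, 4 of them those of *Hr4* and *br* given above, against 1.93% of all regions. A further 3 (4.05%) were of Kc alone, 2 of them those of *Hr4* and *br*, against 4.03% of all regions.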
